A study of Homo sapiens with 12 samples.

Results

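The signal recognition particle RNA, 7SK RNA and the RNA subunits of RNase P and RNase MRP were followed through 12 RNA sequencing libraries of T24 cells, a human line established from bladder cancer. Every entry of the deposited tables with 1 of 6 Gene Names (RN7SL1, RN7SL2, RN7SK, 7SK, RMRP and RPPH1) was taken, which gave 14 of 60504 entries. Of these, 2 were named RN7SL1, 1 RN7SL2, 1 RN7SK, 2 RMRP, 2 RPPH1 and 6 7SK. The libraries carried 3 series codes in their titles. Series R18051 held 4 libraries, T1 and T2 labelled untreated and U1 and U2 labelled U11 knockout. Series R17018 and R18019 held the other 8 libraries. These were 1 untreated library in each series (T24P3 and T24-4) and 6 libraries labelled U11 overexpression, with the line labels 79, 86 and 87 once in each series. The knockout cells came from clones selected after CRISPR/Cas9 editing with a pair of guide RNAs, and the overexpression cells were expanded from clones that carried the plasmid pcDNA-U11. The labels gave polyA RNA as the molecule for all 12 libraries, while the methods of the study described removal of ribosomal RNA. Nothing stated whether libraries of a group came from separate cultures, so a p-value here measures only the spread between these libraries.

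These RNAs are made by RNA polymerase III, end in a short run of uridines and carry no poly(A) tail. The 7SL RNA, encoded by RN7SL1 and RN7SL2, is the scaffold of the signal recognition particle, which binds signal peptides as they leave the ribosome and docks it at the endoplasmic reticulum. The 7SK RNA, encoded by RN7SK, holds the kinase complex P-TEFb in an inactive particle with HEXIM1 or HEXIM2, LARP7 and MEPCE, and so restrains elongation by RNA polymerase II. RPPH1 encodes the catalytic RNA of RNase P, which removes the 5′ leader of precursor tRNAs, and RMRP encodes the related RNA of RNase MRP, which takes part in the processing of ribosomal RNA. The genome holds many truncated copies of 7SL and 7SK, so short reads from them are hard to place.

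Several members are near-identical to each other or to entries under other names. All coordinates are those of the deposited tables on hg38, and the sequences were read from hg38. Of the 14 identifiers, 11 were found in GENCODE release 44, all with the same start and end, and each of these was a single exon. RN7SL1 (ENSG00000276168, chr14:49586580-49586878, plus strand) has 299 bases and lies inside the extent of RPS29 on the opposite strand. A second RN7SL1 entry (ENSG00000283029) has 300 bases and shares all 299 of them. The RN7SL2 entry (ENSG00000280102, chr14:49862547-49862626, minus strand) has only 80 bases. Of these, 77 lie at the 3′ end of an entry of 300 bases (ENSG00000274012, chr14:49862550-49862849, minus strand), which the tables name Metazoa_SRP and GENCODE release 44 names RN7SL2, and 3 lie outside it. This entry is called the full RN7SL2 gene below and was not counted as a member. RN7SL1 and the full RN7SL2 gene were identical at 295 of 299 aligned bases. Reads therefore had few positions at which to choose between them.

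RN7SK (ENSG00000202198, chr6:52995620-52995950, plus strand) has 331 bases. The 6 entries named 7SK are copies elsewhere in the genome, with 61.1% to 87.4% of their bases identical to RN7SK. The closest of them lies on chromosome 17 (ENSG00000271394, chr17:35889558-35889804, plus strand) and matched RN7SK at 216 of its 247 bases. It was the only 7SK copy that reached the level for testing. Among the 3 copies on chromosome 1, the entries ENSG00000273591 and ENSG00000277313 have the same 250 bases. Their values were equal in 3 of the 4 R18051 libraries, so they could not be read as separate genes. The start of RN7SK is shown as the RNA with the largest share of aligned bases after RN7SL1 among the members.
RN7SK, first 300 bases: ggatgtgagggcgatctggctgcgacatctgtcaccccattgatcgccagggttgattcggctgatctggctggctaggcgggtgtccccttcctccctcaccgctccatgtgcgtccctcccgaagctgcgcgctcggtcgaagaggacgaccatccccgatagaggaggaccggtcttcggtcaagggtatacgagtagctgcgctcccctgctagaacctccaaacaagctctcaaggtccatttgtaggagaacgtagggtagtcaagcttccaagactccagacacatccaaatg

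RPPH1 (ENSG00000277209, chr14:20343075-20343407, minus strand) has 333 bases. A second RPPH1 entry of 638 bases (ENSG00000259001, chr14:20343048-20343685, minus strand) contains it and overlaps PARP2 on the opposite strand by 104 bases. RMRP (ENSG00000277027, chr9:35657754-35658017, minus strand) has 264 bases, all of which are shared with a second entry of 268 bases (ENSG00000269900). The start of RPPH1 is shown as the RNA that differed most between the knockout label and its controls among the abundant entries.
RPPH1, first 300 bases: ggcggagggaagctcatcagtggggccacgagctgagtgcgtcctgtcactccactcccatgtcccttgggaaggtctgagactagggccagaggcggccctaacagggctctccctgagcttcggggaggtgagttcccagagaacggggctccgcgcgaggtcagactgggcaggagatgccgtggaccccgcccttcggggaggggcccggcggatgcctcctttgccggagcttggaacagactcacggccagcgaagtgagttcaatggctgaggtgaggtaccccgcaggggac

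The sequenced depth was 13.7 to 15.2 gigabases of aligned reads in the R18051 libraries and 9.07 to 15.3 gigabases in the others. Epithelial keratins were high in every library (KRT7 at 1085 to 6703 TPM), where TPM is the length-scaled abundance with the same total of 1000000 in each library. The urothelial markers GATA3 and PPARG were present at 2.38 to 17.4 and 18.9 to 54.5 TPM, while UPK1B, UPK2 and UPK3A stayed at or under 0.437 TPM. Markers of leukocytes, muscle and liver reached at most 0.915 TPM, and the endothelial marker CDH5 reached 34.1 TPM with PECAM1 at or under 0.297 TPM. U11 itself had 21.4 and 23.8 TPM in T1 and T2, below the 31.6 and 37.4 TPM of U1 and U2, which goes against the knockout label. By real-time quantitative PCR, the study itself reported less U11 in its knockout cells and more in its overexpression cells than in wild-type T24. Of the 6 libraries labelled overexpression, 4 had 3.72 to 61.9 TPM of U11, above the 0.0334 and 0.623 TPM of their untreated libraries. The other 2, 79-1 and 79-3, had 0.183 and 0.412 TPM and lay within the untreated range. The libraries are therefore named by their labels throughout.

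The abundant members separated the library series completely. RN7SL1, the 7SL gene of the member list, had 99496 TPM in T1, 96798 in T2, 89096 in U1 and 91185 in U2. In the other 8 libraries it ranged from 7.09 TPM through a median of 11.8 to 25.4 TPM. RN7SK had 61304 TPM in T1, 58647 in T2, 67393 in U1 and 63179 in U2, against a range of 0.254 to 2.42 with a median of 1.22 TPM elsewhere. No library of R18051 came near the range of any library of the other series for either gene.

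RMRP had 34803, 32203, 30962 and 31371 TPM in T1, T2, U1 and U2. In the other libraries it ranged from 0.423 to 2.28 TPM with a median of 1.14. RPPH1 had 31148, 28424, 24495 and 23793 TPM in the same order, and 0.0927 to 1.07 TPM with a median of 0.525 in the other libraries. RMRP and RPPH1 thus lay next to each other in order of level in R18051, with RMRP above RPPH1 in all 4 libraries. The RN7SL2 entry of 80 bases had 70608, 75953, 66346 and 80725 TPM, and 0.0210 to 0.830 TPM in 7 of the other libraries. In the remaining one, overexpression library 79-1, it had 18.8 TPM.

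**Figure D1:**
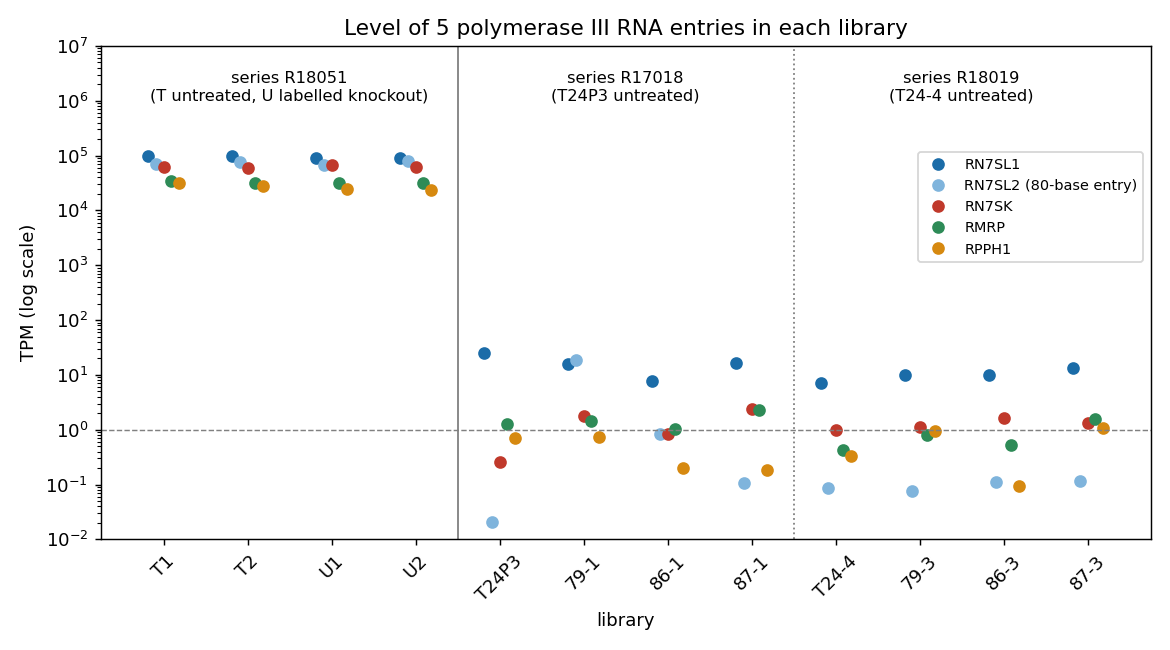
Level of the 5 abundant members in each of the 12 libraries, with TPM on a logarithmic axis, 1 point for each library and the dashed line at 1 TPM. In the 4 R18051 libraries the points lie between 23793 and 99496 TPM, and in the other 8 libraries none is above 25.4 TPM.

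In level per length, the order in R18051 was RN7SL1, RN7SL2 entry, RN7SK, RMRP and RPPH1, except that RN7SK was above the RN7SL2 entry in U1. RN7SL2 and RN7SK therefore overlapped over the 4 libraries, and so did RMRP and RPPH1 (30962 against 31148 TPM), while RN7SL1 lay above all others. The highest library exceeded the lowest by 1.12-fold for RN7SL1 and RMRP, 1.15-fold for RN7SK, 1.22-fold for the RN7SL2 entry and 1.31-fold for RPPH1. The long RN7SL1 entry reached 193 to 291 TPM. The long RMRP and RPPH1 entries and the chromosome 17 copy of 7SK stayed between 1.08 and 2.71 TPM in R18051 and were listed at 0 in all 8 other libraries. Each of the other 5 copies named 7SK stayed at or under 0.586 TPM in every library.

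The 14 entries together held 29.8% of all TPM in T1, 29.2% in T2, 27.9% in U1 and 29.0% in U2. In the other 8 libraries they held 0.000931% to 0.00391%. Because TPM divides by length, short RNAs take a larger share of it than of the reads. The same entries held 4.71% to 5.68% of the aligned bases in R18051 and 0.000111% to 0.000339% elsewhere. As a ratio, the difference between both scales was widest for the RN7SL2 entry of 80 bases, with 6.63% to 8.07% of TPM and 0.354% to 0.463% of aligned bases. In percentage points the 2 RN7SL1 entries together differed more in T1, U1 and T2, for instance with 9.97% of TPM and 2.25% of aligned bases in T1. RN7SK had a smaller TPM share than that entry in 3 of 4 libraries (5.86% to 6.74%) but 1.42% to 1.53% of the aligned bases.

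A large part of the 7SL signal lay outside the 6 Gene Names. The full RN7SL2 gene alone held 10.5% to 12.2% of TPM in R18051, more than any member, and RN7SL5P and RN7SL4P, full-length 7SL copies on chromosomes 9 and 3, reached 22886 to 30431 and 24182 to 30024 TPM. The 906 other 7SL entries held 16.9% to 19.5% of TPM, whereas the 293 RN7SKP copies of 7SK held 0.287% to 0.390%. With all 1202 related copies added, the share rose to 45.2% to 49.5% of TPM and 8.03% to 9.95% of aligned bases. The ratio of RN7SL1 to the full RN7SL2 gene was steady within R18051, at 0.797 to 0.852, and ranged from 0.206 to 0.583 in the other libraries.

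**Figure D2:**
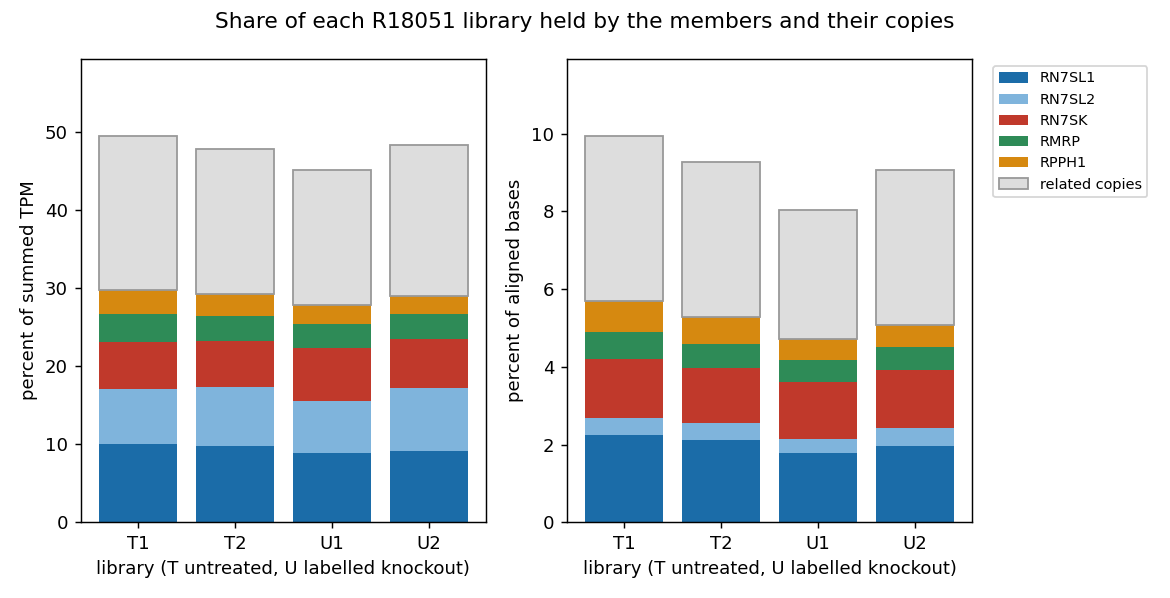
Share of each R18051 library held by the members (colours) and by the related 7SL, 7SK, RMRP and RPPH1 copies (grey), as percent of summed TPM on the left and percent of aligned bases on the right. The members fill 27.9% to 29.8% of TPM but 4.71% to 5.68% of aligned bases, and the RN7SL2 entry shrinks most between the panels as a ratio, though not in percentage points.

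The untreated libraries were compared between library series, since they carry the same treatment label. All 9 members that passed the filter (1 TPM in at least 2 of the libraries compared) were called higher in R18051, with an unadjusted limma P under 0.05 and a change of 1.5-fold or more. Of these 9, 8 did not reach 1 TPM in both T24P3 and T24-4 and so passed the filter through T1 and T2, where they are high. The count is therefore given as a description and not as support, and RN7SL1 was the only member tested that reached 1 TPM in all 4 libraries. Over all 14978 entries tested, 3.51% were called higher and 70.4% lower. The other 5 members, all named 7SK, were too low to be tested. On the log2(TPM + 1) scale the difference was 16.09 ± 0.08 (SE) for the RN7SL2 entry, 15.21 ± 0.23 for RN7SK, 14.26 ± 0.14 for RPPH1, 14.19 ± 0.23 for RMRP and 12.71 ± 0.57 for RN7SL1. These sizes depend on the pseudocount where the lower group is near 0, and with 0.1 TPM added in place of 1 they were 18.89 for the RN7SL2 entry, 16.55 for RN7SK, 15.61 for RPPH1, 15.28 for RMRP and 12.82 for RN7SL1. On the first scale the limma adjusted p of these 5 entries lay between 4.67e-06 (RN7SL2 entry) and 0.000364 (RN7SL1), with n = 2 in each group. The 4 other entries differed by 1.18 (7SK on chromosome 17) to 7.23 (long RN7SL1 entry). The summed share of TPM was 29.5% ± 0.371 (SD, n = 2) against 0.00191% ± 0.00139 (SD, n = 2). An exact permutation test of this share gave p = 0.333, the smallest value that 2 libraries against 2 can give.

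This comparison could not separate library series from sequencing time, preparation or culture. Canonical histone transcripts of the HIST clusters, most of which also end without a poly(A) tail, moved with it, from 0.0103% to 0.0180% of TPM in R17018 and R18019 to 2.77% to 3.43% in R18051. Their part in the result was not tested. Of 11 other polymerase III RNAs tested, 9 were called higher in R18051 and none lower, and 10 of the 11 likewise passed the filter through T1 and T2. RNY1 and RNY3, which encode Y RNAs bound by the Ro60 protein, had 44.5 and 64.5 TPM on average in T1 and T2 and were listed at 0 in both other untreated libraries. VTRNA1-3, a vault RNA, had 29.6 TPM against 0.299 TPM.

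The TPM total is fixed, so the share of the members enters the value of every other entry. With TPM as deposited, the median entry was lower by 0.86 on the log2 scale in R18051, with 525 entries called higher and 10540 lower. When the TPM of each library was rescaled without the 14 members, the median difference was -0.44, with 783 called higher and 5220 lower. When the related copies were left out of the total as well, the median difference was -0.03, with 1685 called higher and 1700 lower. Median ratio scaling gave -0.0037 with 1691 and 1494, and FPKM, which scales by aligned reads instead of the TPM total, gave -0.07 with 1082 and 1514. With FPKM the filter was set on FPKM as well, so 13298 entries were tested instead of 14978. Entries called higher thus made up 4.74% of the calls with TPM as deposited and 49.8% once members and copies were left out of the total. The members themselves stayed higher by at least 12.7 on the log2 scale for RN7SL1, RN7SL2, RN7SK, RMRP and RPPH1 under each of these scalings.

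**Figure D3:**
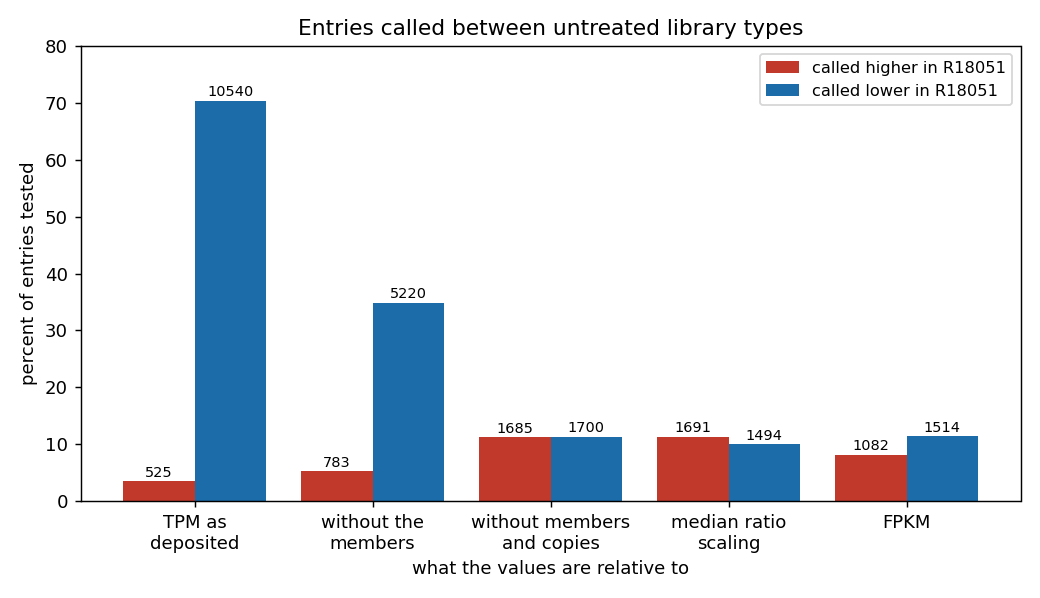
Percent of tested entries called higher (red) or lower (blue) in the untreated R18051 libraries than in T24P3 and T24-4, for 5 definitions of what each value is relative to, with the number of entries above each bar. The excess of lower calls goes from 10540 against 525 with TPM as deposited to 1700 against 1685 without the members and their copies.

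In TPM as deposited, the protein partners of these RNAs were mostly lower in R18051, as was the median entry. Partner values under the other totals, in which fewer of all entries were called lower, are not given here. Of 8 signal recognition particle and receptor proteins tested, 7 were called lower in R18051 than in the other untreated libraries, with a list median of -1.05 against -0.86 over all entries. SRP68, a protein that binds the 7SL RNA directly, had 24.9 ± 0.967 TPM (SD, n = 2) against 98.8 ± 21.1 TPM, and SRPRA, the receptor subunit that docks the particle, had 39.3 ± 1.22 against 166 ± 6.67 TPM. SRP54, which holds the signal peptide, had 52.4 ± 2.27 against 70.6 ± 2.65 TPM and missed the fold threshold. Of 7 proteins of the 7SK particle and P-TEFb, 5 were called lower, with a median of -1.06. HEXIM1, the P-TEFb inhibitor, had 19.4 ± 0.639 against 59.1 ± 1.37 TPM, and MEPCE, the enzyme that caps 7SK, had 23.4 ± 0.991 against 50.1 ± 5.15 TPM. Of 11 RNase P and MRP proteins, 10 were called lower, with a median of -0.91 and with POP4 at 32.1 against 42.3 TPM as the exception. Of 13 polymerase III subunits 11 were called lower, of 19 polymerase III factors 15, and of 2 La and Ro proteins 1. These shares stood beside the 70.4% of all entries called lower.

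The knockout label was compared with the untreated libraries within R18051. Here 9 members were tested and 1 was called, the long RPPH1 entry, which fell from 2.71 and 2.48 TPM in T1 and T2 to 1.08 and 1.23 TPM in U1 and U2. Its log2 fold change was -0.74 ± 0.13 (SE), with a limma adjusted p = 0.0410. Of all 14356 entries tested, 3.15% were called lower and 8.61% higher. The balance of these calls depended on the scaling, with 1236 higher and 452 lower for TPM as deposited (73.2% of calls higher), 810 and 674 with median ratio scaling (54.6%) and 702 and 558 with FPKM (55.7%), while the same count of 1 member was called lower under each. With FPKM the filter was set on FPKM as well, so 13374 entries were tested instead of 14356. RPPH1 itself, with 31148 and 28424 TPM in T1 and T2 and 24495 and 23793 TPM in U1 and U2, moved by -0.30 ± 0.07 (limma adjusted p = 0.0611), so that it did not overlap between the groups but missed the fold threshold. The long entry contains RPPH1, so both values come from 1 locus.

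The other abundant members moved by less. RN7SL1 had a log2 fold change of -0.12 ± 0.05 (limma adjusted p = 0.166) and RMRP of -0.10 ± 0.06 (limma adjusted p = 0.311), with every library labelled knockout below every untreated one for both genes. RN7SK moved the other way, by 0.12 ± 0.06 (limma adjusted p = 0.233), also without overlap. The RN7SL2 entry, at 66346 and 80725 TPM in U1 and U2, spanned the values of T1 and T2, with a log2 fold change of -0.00095 ± 0.11. The full RN7SL2 gene, which contains most of it, had 122076 and 118439 TPM in T1 and T2 and 104613 and 114372 in U1 and U2 (-0.14 ± 0.06, limma adjusted p = 0.217).

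Over the 9 tested members, 2 were above 0 and 7 below, with a median of -0.12 against 0.11 over all entries. The groups did not overlap in 6 of the 9, while 60.2% of all entries tested did not overlap. Both entries above 0, RN7SK and the chromosome 17 copy of 7SK, were 7SK sequences. The copy had 1.24 and 1.29 TPM in T1 and T2 and 2.28 and 2.12 TPM in U1 and U2 (0.50 ± 0.12, limma adjusted p = 0.0772). Relative to the median entry RN7SK lay at 0.014, RMRP at -0.21, RN7SL1 at -0.23 and RPPH1 at -0.41. Under FPKM, median ratio scaling and both rescaled totals, RN7SK ranged from 0.0069 to 0.10 and RPPH1 from -0.42 to -0.32, with no change of sign.

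Ratios between members in the same library do not depend on the total. RN7SK to RPPH1 was 1.97 in T1 and 2.06 in T2, and 2.75 in U1 and 2.66 in U2, a mean of 2.02 ± 0.067 against 2.70 ± 0.068 (SD, n = 2 each). RN7SL1 to RN7SK was 1.62 and 1.65 in the untreated libraries and 1.32 and 1.44 in those labelled knockout. RMRP to RPPH1, the pair of related RNase RNAs, was 1.12 and 1.13 against 1.26 and 1.32. The groups were apart in each of these 3 ratios. They overlapped in the 3 others computed, which were the RN7SL2 entry to RN7SL1 (0.710 and 0.785 against 0.745 and 0.885), the RN7SL2 entry to the full RN7SL2 gene (0.578 and 0.641 against 0.634 and 0.706) and RN7SL1 to the full RN7SL2 gene (0.815 and 0.817 against 0.852 and 0.797). All 6 are a description with no test. The summed share of TPM was 29.5% ± 0.371 in the untreated libraries and 28.4% ± 0.844 in those labelled knockout (SD, n = 2 each), with an exact permutation p = 0.333 (two-sided, the smallest possible with 2 against 2). As a share of aligned bases it was 5.49% ± 0.278 against 4.90% ± 0.262.

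The 7SK copies named RN7SKP were higher in 9 of the 10 entries tested, with a median log2 fold change of 0.44 against 0.11 over all entries. None was called, since none reached a fold change of 1.5. By limma, 7 of the 10 had an unadjusted p under 0.05, all higher, and 3 an adjusted p under 0.05. Over all entries tested, 30.1% had an unadjusted and 7.82% an adjusted p under 0.05. The 3 copies were RN7SKP80 (428 and 447 TPM in T1 and T2, 631 and 664 in U1 and U2, limma adjusted p = 0.0237), RN7SKP71 (833 and 838 against 1152 and 1121 TPM, limma adjusted p = 0.0290) and RN7SKP203 (1511 and 1555 against 1969 and 1970 TPM, limma adjusted p = 0.0380). RN7SKP80 matched RN7SK at 96.1% of its bases, RN7SKP71 at 85.2% and RN7SKP203 at 84.3%. How reads were divided between RN7SK and these copies was not given in the sources used here. The 23 tested 7SL copies had a median of 0.13, with 17 higher, 1 called higher and 1 called lower.

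Among the other polymerase III RNAs, 2 of 12 tested were called higher with the knockout label and none lower. RNY1 rose from 39.0 and 50.0 TPM in T1 and T2 to 118 and 119 TPM in U1 and U2 (log2 fold change 1.40 ± 0.14, limma adjusted p = 0.0166). RNY3 rose from 59.7 and 69.3 to 118 and 110 TPM (0.81 ± 0.11, limma adjusted p = 0.0261). Relative to the median entry these differences were 1.30 and 0.71. Both have many near-identical copies, and how reads were shared between them was likewise not given. Their protein partner Ro60, listed as TROVE2, had 23.8 ± 5.08 against 34.1 ± 2.10 TPM (0.51 ± 0.17, limma adjusted p = 0.129).

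**Figure D4:**
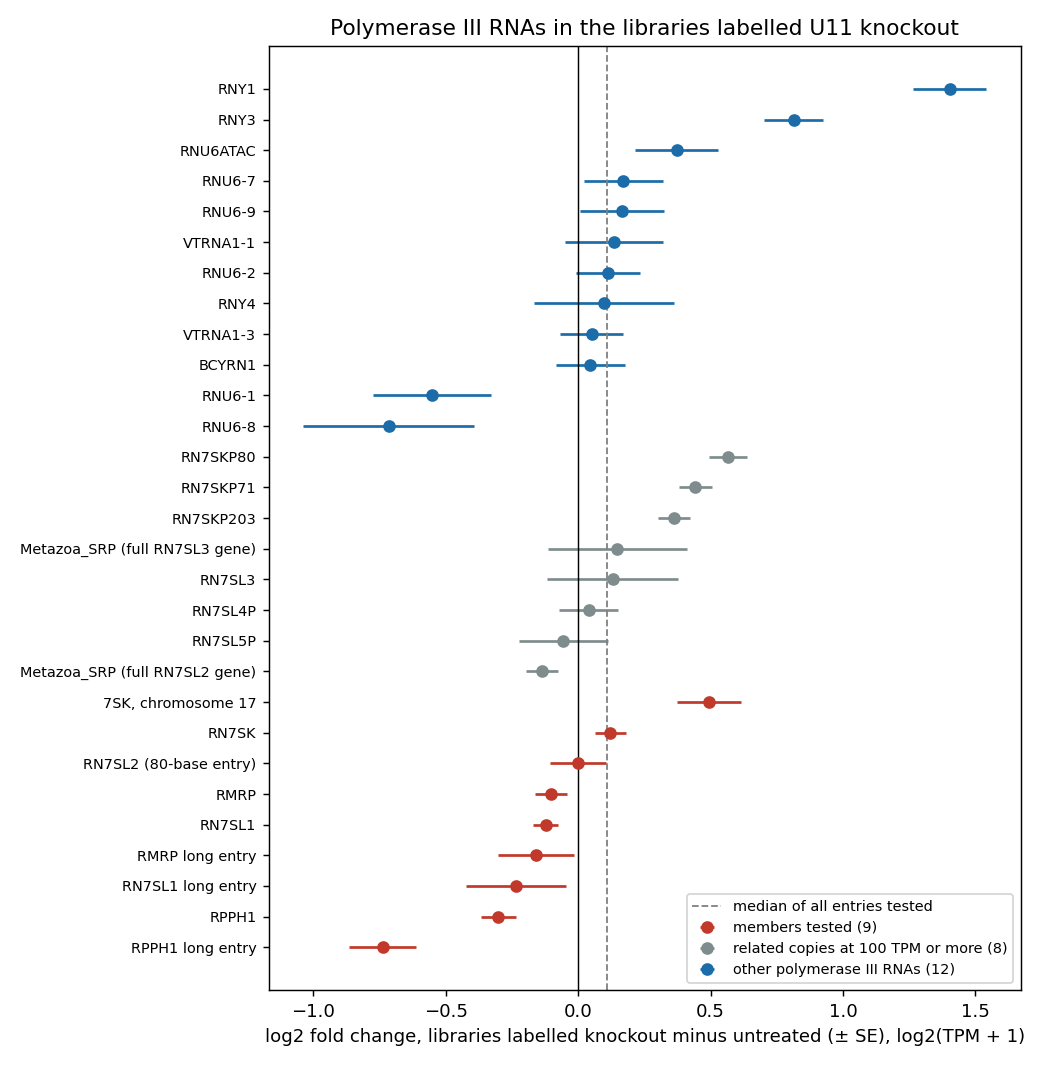
Log2 fold change with its standard error for the 9 tested members (red), the 8 related copies at 100 TPM or more in every R18051 library (grey) and 12 other polymerase III RNAs (blue), libraries labelled knockout minus untreated, with the median of all entries dashed at 0.11. RPPH1 entries lie at the low end (-0.74 and -0.30), 7SK copies at 0.36 to 0.56, and RNY1 and RNY3 highest at 1.40 and 0.81.

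The protein partners gave few calls with the knockout label. None of the 8 signal recognition particle proteins and none of the 7 proteins of the 7SK particle and P-TEFb was called, and by limma none of them had an unadjusted p under 0.05. Of the 11 RNase P and MRP proteins none was called, and 3 had an unadjusted p under 0.05, all lower, which is a share near the 30.1% of all entries. They were POP1, the largest shared protein subunit (13.9 ± 1.87 against 9.83 ± 0.701 TPM, limma adjusted p = 0.115), RPP25L (13.0 ± 0.0936 against 9.41 ± 0.289 TPM, limma adjusted p = 0.0793) and its relative RPP25 (1.89 ± 0.00165 against 1.28 ± 0.105 TPM, limma adjusted p = 0.149). In this list 10 of 11 lay below the median of all entries, with a list median of -0.11. Of the 13 polymerase III subunits none was called and 2 had an unadjusted p under 0.05, both lower, a share below that of all entries. Of the 19 polymerase III factors 1 was called, GTF3C6, a subunit of the factor TFIIIC. GTF3C6 rose from 57.7 ± 1.76 to 88.7 ± 1.41 TPM (0.61 ± 0.08, limma adjusted p = 0.0275). By limma, 5 of the 19 had an unadjusted p under 0.05, 2 higher and 3 lower, a share below the 30.1% of all entries. In this list 6 of 19 lay above the median of all entries.

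In the overexpression comparison the members rested on few reads. RN7SK rested on 300 aligned bases in T24P3, the length of 1 read pair, and on 1200 to 3525 in the other 7 libraries. RMRP had 600 to 2642 aligned bases, RPPH1 132 to 1964, and RN7SL1 10389 to 27082. Of the 14 members 4 were tested and 1 was called, RN7SK, beside 0.767% of all 15768 entries called higher and 1.16% lower. RN7SK had 0.254 TPM in T24P3 and 0.998 in T24-4, and 0.821, 2.42, 1.75, 1.10, 1.66 and 1.33 TPM in overexpression libraries 86-1, 87-1, 79-1, 79-3, 86-3 and 87-3. The groups overlapped, since 86-1 lay below T24-4. The log2 fold change was 0.64 ± 0.26 (SE) with a limma adjusted p = 0.813, and the call was lost with library series as a block. With a pseudocount of 0.1 the log2 fold change was 1.30, since both groups lie near 1 TPM. Without both libraries of line label 79, in which U11 was within the untreated range, it was 0.66 and RN7SK was not called. Within series R17018 the difference of the means was 1.04 and within R18019 it was 0.24, with 1 untreated library in each. Without T24P3 the log2 fold change was 0.30 and RN7SK was not called, and the call was also lost without 79-1, 87-1, 86-3 or 87-3.

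RN7SL1 had 25.4 TPM in T24P3 and 7.09 in T24-4, and its 6 overexpression values, from 7.87 to 16.3 TPM, lay between them. Its log2 fold change was -0.19 ± 0.42, with a difference of -0.94 within R17018 and 0.57 within R18019, so that the direction depended on the series. RMRP moved by 0.30 ± 0.30 and the long RN7SL1 entry by 0.63 ± 0.38, neither called. The summed share of TPM was 0.00206% ± 0.000962 (SD, n = 6) against 0.00191% ± 0.00139 (SD, n = 2), with an exact permutation p = 0.929 (two-sided, smallest possible 0.0357). Among the line labels, with 1 library in each series, RMRP was highest for 87 (2.28 and 1.59 TPM), followed by 79 (1.43 and 0.807) and 86 (1.03 and 0.532) in both series. RN7SL1 was also highest for 87 in both (16.3 and 13.4 TPM). RN7SK had another order in each series, with 1.75 and 1.10 TPM for 79, 0.821 and 1.66 for 86, and 2.42 and 1.33 for 87. By limma, no protein on the 6 lists of partner and polymerase III proteins was called or had an unadjusted p under 0.05 in this comparison.

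The entries whose profile over the 12 libraries was most like that of a member were sought among 14755 entries with a mean of at least 1 TPM. Likeness was the root mean square distance between log2(TPM + 1) profiles, each centred on its own mean. RN7SL5P was nearest to RN7SL1 (0.43) and to RMRP (0.70), and RN7SL4P was nearest to RN7SK (0.79), RPPH1 (0.63) and the RN7SL2 entry (1.15). SNORD3A, which encodes the U3 small nucleolar RNA, was among the 3 nearest for all 5 members, at 0.49 for RN7SL1, with 7729 to 11888 TPM in R18051 and 0.443 to 1.00 TPM elsewhere. RNU2-2P, a U2 small nuclear RNA gene, was also among the 3 nearest to RN7SL1 (0.60). The members themselves lay at 0.38 (RMRP and RPPH1) to 1.68 (RN7SL1 and the RN7SL2 entry) from each other. These distances describe 12 libraries that share their series, and the difference between series makes up most of each profile. The untreated libraries entered the comparison between series as well as 1 comparison with a U11 label, so the comparisons are not independent of each other.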

How the data were processed

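The 12 libraries were grouped by their treatment labels, and library series was read from the titles. Replicate numbers were assigned in the order of the libraries within each group. Reads were trimmed by the authors with fastp, aligned to hg38 with Hisat2 and summarised with Stringtie. The deposited tables give, for each entry, the coverage (mean aligned bases per position), FPKM (scaled by length and aligned reads) and TPM (scaled by the authors to 1 common total). Read counts were not used here, so the count test named in the methods was replaced by limma 3.58.1 in R 4.3.3 (eBayes with trend) on log2(TPM + 1), over entries with at least 1 TPM in 2 or more libraries compared. Entries were called with an unadjusted P under 0.05 and a change of 1.5-fold or more, after the methods of the study, and Benjamini-Hochberg adjusted p-values are over all entries tested. Aligned bases are coverage times length, and the depth was the upper limit of coverage over FPKM. TPM comes without an estimate of its counting error, so only the spread between libraries gave the precision. Summed shares were tested by an exact permutation test.

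Every entry with a member's Gene Name was named, with the 3 nearest entries of each abundant member, the called genes of the partner lists, and copies related by name. Partner genes that were not called, RNY1, RNY3, RN7SKP copies and histone transcripts were named after their values were seen. The members and lists were chosen with earlier results of these data known. Sequences were read from hg38 and aligned globally with Biopython 1.88 (match 1, mismatch -1, gap opening -3, gap extension -1). Some of the sequences compared are not reported here. The fits were tested on simulated data with 200 entries changed 2-fold. Of these, 199, 200 and 199 were called in the simulated knockout, overexpression and untreated comparisons, over 14150, 14995 and 14644 entries. A call here was an unadjusted limma P under 0.05 with a change of 1.5-fold or more. The simulated spread was the same for all entries and was set in advance, not taken from these data. No member and no entry with a mean near 1 TPM was changed. The simulation therefore checked the code and does not give the power of the fits for the members. The alternatives tried were another pseudocount, FPKM, other totals and scalings, other filters, no trend, 1 fit of all libraries, adjusted P, blocks, line means and each library left out. Rescaling without the related copies and leaving out both libraries of line label 79 were chosen after seeing the data. Python 3.11.15, numpy 2.4.6, pandas 2.3.3 and matplotlib 3.10.9 were used.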

Additional observations from a re-analysis of the deposited data

Results flagged for a closer look

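Of the 6 members examined in the overexpression group, 1 had a library far from the others. The RN7SL2 entry of 80 bases had 18.8 TPM in overexpression library 79-1, while the other 5 libraries of the group had 0.0760 to 0.830 TPM and the untreated libraries 0.0210 and 0.0868 TPM. In the other library with line label 79, the value was 0.0760 TPM. The entry rested on 6982 aligned bases in 79-1 and on at most 293 in the others. Its ratio to RN7SL1 was 1.19 in 79-1 and at most 0.105 in the other libraries of the same 2 series, while RN7SL1 itself, at 15.8 TPM, lay within the range of the group. The ratio to the full RN7SL2 gene, which contains 77 of its 80 bases, was 0.695 in 79-1 and 0.578 to 0.706 in R18051. U11 in 79-1, at 0.183 TPM, was within the untreated range. Chance flags about 1 in 20 groups.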

How the results depend on the processing

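Of 126 alternative values for counts and shares, 99 stayed the same, 23 moved and 4 were reversed. A count stayed the same within 1.5 times of the main value and moved beyond that. A difference of shares stayed the same if it kept its sign, whatever its size, and was otherwise reversed. The share of summed FPKM equals the share of TPM by construction, so it could not differ. Of 194 alternative values for single members, 181 kept their direction and call. Another filter, no trend, adjusted P, the blocks and 1 fit of all libraries left each log2 fold change as it was. Under these settings the direction could not change, only the call. With the knockout label, 1 member was called as reported and in each leave-one-out fit, 2 with a pseudocount of 0.1, and all entries called went from 1688 to 984 with adjusted P and to 1385 to 2511 with each library left out. RN7SL2 changed sign without the knockout replicate 1 (0.14) and without the untreated replicate 2 (0.05), with a range of -0.14 to 0.14 over libraries left out. Deviations of libraries with the same replicate number had a correlation of 0.024, a single value that cannot decide whether the samples were paired. Under the replicate block, 1706 entries and the same count of 1 member were called at unadjusted P. Entries with a limma adjusted p under 0.05 fell from 1123 to 149 under this block. The adjusted p-values given for single entries come from the fit without the block. In the overexpression comparison, FPKM left 2 members to test and a filter of 1 TPM in every library left 1. RN7SK was in neither, so its call could not be checked there. When an overexpression library was left out, 0 or 1 member was called. Among overexpression results, 0 members were called with FPKM, that filter, adjusted P or the library series block. All entries called numbered 304, and 154, 175 and 26 under the first 3 of these, and 264 to 380 with a library left out. With libraries left out, RN7SL1 ranged from -1.04 (without T24-4, then called lower) to 0.66 (without T24P3) and RMRP from -0.028 (without T24-4) to 0.63. RN7SK lost its call without T24P3, 79-1, 87-1, 86-3 or 87-3. The difference of the summed share, 0.000148 percentage points of TPM, was -8.41e-06 for aligned bases, and -0.000832 to 0.00113 with a library left out, negative without 79-1 (-0.000223), T24-4 (-0.000832) or both libraries of line label 79 (-0.00019, added after seeing the data, with 0 members and 338 entries called). Between untreated libraries, 1 member was tested and called with 1 TPM in every library and 2 to 9 with a library left out (2 without T1 or T2), since fewer passed the filter. All entries called went from 11065 to 2596 with FPKM, 6003 and 3385 in the rescaled totals (the second added after seeing the data) and 3185 with median ratio scaling. FPKM values were also filtered on FPKM, so fewer entries were tested with them in each comparison. Where no cause is given, the cause was not tested. Read numbers limit the overexpression values, and 2 libraries a group limit the others.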
